A study of Mus musculus with 7 samples.

Results

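The BCL2 family decides whether a cell releases cytochrome c from its mitochondria, the step that commits it to apoptosis. This report describes open chromatin at 10 of its genes in HPC7 cells: the survival genes Bcl2, Bcl2l1 and Mcl1, the pore-forming effectors Bax and Bak1, and the BH3-only genes Bcl2l11, Bid, Bad, Bbc3 and Pmaip1. The genes were chosen by name and not by a measured value, though with earlier results of these data known. They are 10 of the 21938 protein-coding genes of GENCODE M21 on the mouse chromosomes. Every open-chromatin region (OCR) that overlapped the body of a gene or the 20 kb on either side of it was taken, which gave 195 of the 144931 OCRs merged over the libraries.

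HPC7 is an established mouse hematopoietic progenitor line that grows in medium with stem cell factor, the ligand of the receptor Kit. All 7 libraries are bulk ATAC-seq of this 1 line and were made from independent cultures. The labels give the same growth medium for all of them and name no treatment, genotype or age. In ATAC-seq the transposase Tn5 inserts sequencing adapters into accessible DNA, so reads pile up where chromatin is open. The libraries are called HPC7-1, HPC7-2 and HPC7-4 to HPC7-8 here. Peak names carry the prefix VD in 3 libraries (HPC7-1, HPC7-2, HPC7-4), while the remaining 4 have the prefix EtOH. No source used here explains these letters, and they were not treated as groups. Beyond the values given for each set of prefixes, their part in the results was not tested.

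The lists held between 84593 and 132852 OCRs. Fold enrichment, called intensity here, is the reads at the summit of a peak plus 1 over the background of its library plus 1. It came in whole multiples of 1 step in every list, so the reads could be recovered. The background was 4.44 to 20.4 reads, highest in HPC7-1, which is also the longest list. Promoters of 8 of 8 hematopoietic progenitor genes (Kit, Tal1, Lmo2, Gata2, Lyl1, Runx1, Meis1 and Gfi1b) held an OCR in all 7 libraries. Of 19 markers of T cells, B cells, hepatocytes, neurons, muscle and keratinocytes, 16 had no promoter OCR in any library, 1 had it in some, and 2 had it in all 7 (Ckm at a mean intensity of 43.5 and Rbfox3 at 5.36). A lower intensity in bulk cells can mean fewer cells with the region open or less access in each cell, and these cannot be told apart.

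Survival proteins hold the family in check by binding its death-promoting members. Bcl2 and Bcl2l1 (BCL-XL) are long-lived, MCL1 turns over quickly, and MCL1 and BCL-XL are known for keeping blood cells alive. BAX and BAK1 form the pore in the outer mitochondrial membrane. BH3-only proteins are the triggers: BIM (Bcl2l11) responds to loss of growth factor, BAD to loss of its phosphorylation by survival kinases, BID to cleavage by caspase 8, and PUMA (Bbc3) and NOXA (Pmaip1) are induced by p53.

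Of the 10 genes, 9 had an OCR within 1 kb of a transcript start in all 7 libraries, and Pmaip1 had none in any. Among all protein-coding genes, 55.9% had a promoter OCR in all 7 libraries and 38.2% had none in any. The strongest promoter was that of Bcl2l1 and the weakest of the 9 was that of Bax, and these held rank 1 and rank 9 in 7 of 7 libraries.

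Bcl2 encodes the founding member of the family and spans 176097 bp of chromosome 1 (ENSMUSG00000057329.7, chr1:106538178-106714274, mm10, minus strand). Its promoter intensity was lowest at 72.1, had a median of 98.8 and was highest at 113, a mean of 98.7 ± 13.7 (SD, n = 7). HPC7-6 stood below the other 6 libraries, which lay between 95.7 and 113. The mean placed this promoter at percentile 95.4 ± 1.04 of the OCRs of the same library. Among coding genes with a promoter OCR in the same library it stood at percentile 64.5 ± 5.65.

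Bcl2l1 lies on chromosome 2 (ENSMUSG00000007659.18, chr2:152780668-152831728, minus strand). The intensity of its promoter was 123 in the lowest library, 194 in the median library and 207 in the highest, a mean of 175 ± 31.1 (SD, n = 7). It stood above every other member in every library. This was percentile 99.0 ± 0.33 of all OCRs and percentile 91.9 ± 1.87 of coding genes with a promoter OCR.

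Mcl1 is a compact gene of 4.39 kb on chromosome 3 (ENSMUSG00000038612.16, chr3:95658788-95663176, plus strand). Its promoter had an intensity from 72.3 through a median of 104 to 133, a mean of 104 ± 19.6 (SD, n = 7), at percentile 95.8 ± 0.65 of all OCRs. Within a library its rank among the 9 promoters varied from 2 to 5.

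The effectors differed from each other. Bax (ENSMUSG00000003873.11, chr7:45461697-45466898, minus strand) had a promoter intensity of 36.0 in the lowest library, 42.5 in the median and 59.8 in the highest, a mean of 46.5 ± 9.6 (SD, n = 7). Bak1 (ENSMUSG00000057789.14, chr17:27019810-27029009, minus strand) had 72.3, 88.4 and 132, a mean of 97.6 ± 20.7 (SD, n = 7). The promoter OCR of Bak1 also overlaps the 1 kb around a start of Ggnbp1, so the signal cannot be assigned to 1 of the pair of genes. Bax was below Bak1 in 7 of 7 libraries, by a mean log2 difference of -1.07 ± 0.14, and the intensities of the libraries did not overlap. The adjusted p was 0.022 in an exact sign-flip permutation test. Bax stood at percentile 88.2 ± 2.08 of all OCRs, but only at percentile 29.5 ± 2.93 of coding genes with a promoter OCR.

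Among the BH3-only genes, Bcl2l11 (ENSMUSG00000027381.16, chr2:128126038-128162547, plus strand) had the most intense promoter, with 79.9 in the lowest library, a median of 119 and a highest value of 143, a mean of 115 ± 20.3 (SD, n = 7). It ranked 2 among the members in the median library and never below 4. Bbc3 (ENSMUSG00000002083.13, chr7:16308393-16318205, plus strand) had 78.8, 111 and 123, a mean of 103 ± 15.5 (SD, n = 7). Its promoter OCR was the widest of the family, with a peak of 6645 ± 491 bp on average against 1518 ± 367 bp for that of Bax.

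Bad (ENSMUSG00000024959.14, chr19:6941861-6951899, plus strand) had promoter intensities from 68.8 through a median of 96.8 to 117, a mean of 95.8 ± 18.7 (SD, n = 7). Its 9 annotated starts fall under 2 OCRs, both found in all 7 libraries. The OCR at the first starts, shared with Gpr137, had a mean of 95.3 ± 18 (SD, n = 7) and that at the last starts, near the end of the gene, a mean of 89.7 ± 19.9 (SD, n = 7). HPC7-1 was the exception to this order, with 113 at the first starts and 117 at the last.

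Bid (ENSMUSG00000004446.12, chr6:120891930-120916853, minus strand) had promoter intensities of 57.4, 86.5 and 106 in the lowest, median and highest library, a mean of 83.6 ± 17.9 (SD, n = 7). It ranked 7 or 8 of 9 in every library. The promoter OCR of Bid also overlaps the 1 kb around a start of Gm44260, so the signal cannot be assigned to 1 of the pair of genes.

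**Figure D1:**
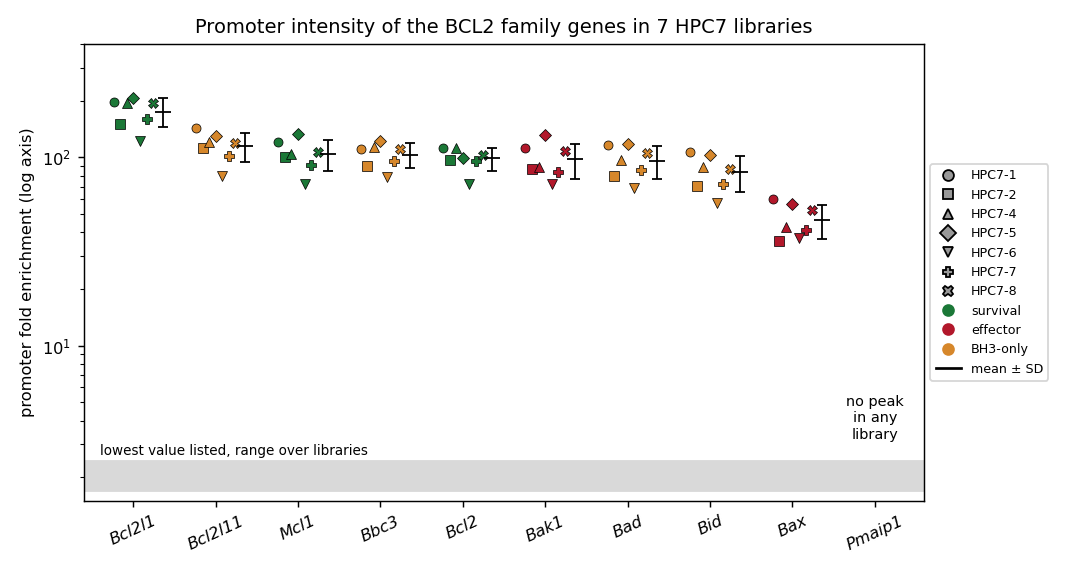
Highest fold enrichment within 1 kb of a transcript start of each gene (log axis), 1 symbol per library, with the mean and SD over 7 libraries beside it. Bcl2l1 lies on top at 175, Bax at the bottom at 46.5, Pmaip1 has no peak, and the grey band gives the lowest values listed, 1.68 to 2.44.

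The spread within a gene was shared between genes. HPC7-6 had the lowest value for 8 of the 9 promoters, HPC7-2 for the remaining 1, and the highest values were in HPC7-1 for 4 and in HPC7-5 for 5. The reads at the summits were many, from 195 in the Bax promoter of HPC7-2 to 4209 in the Bcl2l1 promoter of HPC7-1, so counting error amounted to 7.16% at the lowest and 1.54% at the highest. The SD over libraries, which also holds the differences between cultures and backgrounds, was 13.9% to 21.5% of the mean. Counting error treats reads as independent molecules.

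To compare members without the differences between libraries, the log2 ratio of the promoter intensities of each of the 45 pairs was taken within each library and tested with an exact two-sided sign-flip permutation test, whose smallest p with 7 libraries is 0.0156. P-values were adjusted by Benjamini-Hochberg over the 45 pairs. For Pmaip1 the lowest intensity listed in the library stood in as an upper limit, which makes its differences lower bounds and places it below every other member by construction, so its 9 pairs are no test. Among the 36 pairs of the 9 genes with a promoter OCR, 27 differed, with adjusted p-values of 0.022 to 0.0391, and 23 went the same way in 7 of 7 libraries. Adjusted over these 36 pairs alone, a choice made after seeing the data, 27 were called as well, with p-values up to 0.0417.

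Bcl2l1 exceeded each of the other 8 open promoters in 7 of 7 libraries, all with an adjusted p of 0.022 in the exact permutation test. Its smallest margin was over Bcl2l11, with a mean log2 difference of 0.61 ± 0.11 (1.52-fold), and its largest over Bax, with 1.92 ± 0.18 (3.78-fold). It exceeded Mcl1 by 0.75 ± 0.11, and Bcl2 lay below it with a difference of -0.82 ± 0.13. Bax was below the other 8 in 7 of 7 libraries with the same adjusted p, from -0.84 ± 0.15 against Bid to -1.92 against Bcl2l1.

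Bcl2l11 followed in second place. It exceeded Mcl1 by 0.15 ± 0.09 on the log2 scale in 6 of 7 libraries, with an adjusted p of 0.0391 in the exact permutation test, and Bbc3 by 0.15 ± 0.14 in 7 of 7, with an adjusted p of 0.022. The call against Mcl1 held only without HPC7-5 when single libraries were left out. Without any other library, Mcl1 minus Bcl2l11 lay between -0.13 and -0.15 and the adjusted p was 0.076 or 0.0781.

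Mcl1, Bbc3, Bcl2, Bak1 and Bad formed a run whose neighbours did not differ beyond their spread. Mcl1 and Bbc3 differed by 0.01 ± 0.12 (adjusted p = 0.953, exact permutation test), Bbc3 and Bcl2 by 0.06 ± 0.14 (0.387), Bcl2 and Bak1 by 0.03 ± 0.24 (0.751), and Bak1 and Bad by 0.02 ± 0.11 (0.621). The ends of this run did differ: Mcl1 exceeded Bad by 0.12 ± 0.11 in 7 of 7 libraries, with an adjusted p of 0.022. Below the run, Bad exceeded Bid by 0.20 ± 0.06 in 7 of 7 libraries and Bid exceeded Bax by 0.84 ± 0.15, both with an adjusted p of 0.022. Scaling by chromosome, described next, ended the call between Bid and Bad (Bid minus Bad -0.01, adjusted p = 0.447, exact permutation test).

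**Figure D2:**
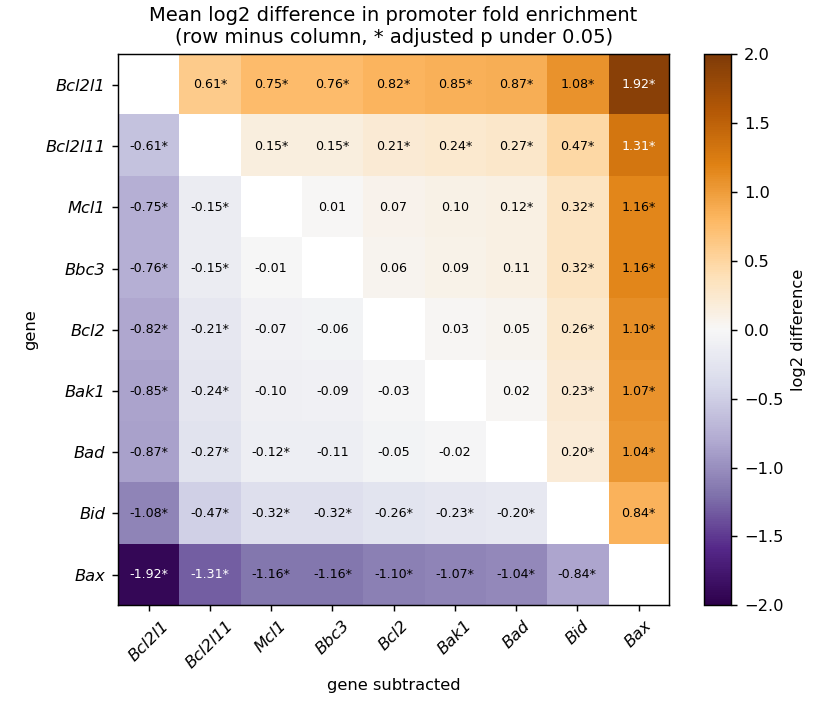
Mean over 7 libraries of the log2 promoter intensity of the row's gene minus that of the column's gene, for the 9 genes with a promoter OCR, with an asterisk where the adjusted p of the exact sign-flip permutation test was under 0.05. The row of Bcl2l1 is positive throughout, from 0.61 to 1.92, and the block from Mcl1 to Bad holds 1 asterisked pair, 0.12.

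The places of Bcl2 and Bak1 moved with their chromosomes. The 90th percentile of promoter intensity over the coding genes of chromosome 1 was 1.41 ± 0.06 (SD, n = 7) times that of the median autosome, and that of chromosome 17 was 1.39 ± 0.04 times. The chromosomes of the other members with a promoter OCR lay between 0.90 and 1.03. Divided by the value of its chromosome, the mean intensity was 70.5 ± 11.3 (SD, n = 7) for Bcl2 and 70.3 ± 16.4 for Bak1. Without the pairs of Pmaip1, 33 of 36 pairs were called with this scaling. Bcl2 then lay below Bid by a log2 difference of -0.38 ± 0.14 and below Mcl1 by -0.61 ± 0.17, and Bak1 below Bid by -0.40 ± 0.13. Each had an adjusted p of 0.018 in the exact permutation test, adjusted over all 45 pairs. Bcl2l1 and Bax kept the top and bottom places among the 9. The number of copies of these chromosomes in HPC7 is not given in the sources used here, and its part in the result was not tested.

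Survival and death genes did not separate into a high and a low set. With Pmaip1 left out, since its place is fixed, there were 18 pairs of a survival and a death gene. The survival gene was higher in every library in 10 of them, the death gene in 1, and 7 were mixed. Bcl2l1 was higher throughout than all 6 death genes with a promoter OCR, Mcl1 than Bax, Bid and Bad, and Bcl2 than Bax. The 1 pair with the death gene higher throughout was Bcl2l11 over Bcl2, where Bcl2 minus Bcl2l11 was -0.21 ± 0.12 on the log2 scale. By the exact permutation test the survival gene was higher in 11 pairs, the death gene in 2 (Bcl2l11 over Bcl2 and over Mcl1), and 5 were not called. Of these, Bcl2 over Bid and Bcl2l11 over Mcl1 lost the call with any single library other than HPC7-5 left out, with an adjusted p of 0.076 or 0.0781. HPC7-5 is the 1 library of the opposite sign in both pairs, and any 6 libraries that include it allow no call. Scaled by chromosome, the survival gene was called higher in 11, the death gene in 5 and 2 were not called: Bcl2 then lay below Bcl2l11 (-0.81), Bbc3 (-0.55), Bad (-0.39) and Bid (-0.38), and Mcl1 below Bcl2l11 (-0.20).

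The median log2 intensity of the 3 survival genes was 6.70 ± 0.28 (SD, n = 7) and that of the 7 death genes, Pmaip1 at its upper limit, was 6.52 ± 0.28. Within a library the difference had a mean of 0.18 ± 0.12 and was positive in 7 of 7 libraries, from 0.02 in HPC7-8 to 0.34 in HPC7-4. With Pmaip1 left out it was 0.15 ± 0.11, again positive in 7 of 7. In the libraries with the prefix VD its mean was 0.26 ± 0.13 (SD, n = 3), and in those with EtOH 0.12 ± 0.09 (SD, n = 4), with values that overlapped. Scaled by chromosome, the survival minus death difference was 0.25 ± 0.10, and 0.23 ± 0.11 with Pmaip1 left out, positive in 7 of 7 libraries both times. A score over genes picked by name carries no test here.

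The windows of the 10 genes covered 734 kb. Of their 195 OCRs, 12 were at a promoter of the member, 25 at a promoter of another gene only, 12 overlapped an exon of the member, 65 lay in its introns, 27 lay in the body of another gene and 54 were intergenic. In all, 103 OCRs, or 52.8%, had a peak in all 7 libraries, against 46.2% of all merged OCRs. Away from every transcript start, 79 of 158 had one, or 50.0%, against 41.6% of all such OCRs. These shares are descriptions and were not tested.

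OCRs in fewer libraries were weak. The 46 OCRs found in 1 library had a median intensity of 2.34, and 34 of them were in HPC7-1, the library with the longest list and the highest background. No OCR in fewer than 7 libraries had a mean intensity above 4.63, whereas the median over the 103 was 11.7. Without HPC7-1 the windows held 171 OCRs, and 62.6% were in all of the remaining libraries.

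Bcl2 had the largest number of OCRs, 61 in a window of 216 kb, of which 45 were intronic. Of these 45, 22 had a peak in all 7 libraries, at mean intensities from 4.77 to 72.4. Bcl2l1 had 25 OCRs in 91.1 kb, 12 of them intronic and 6 of those in all 7 libraries. The other 8 genes together had 8 intronic OCRs, 3 of them in all 7 libraries.

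Per 100 kb of window, Mcl1 had the most OCRs, 42.8, followed by Bak1 with 38.6. The fewest were at Bcl2l11, 13.1, and at Bid, 18.5. The median coding gene had 10.5, and Mcl1 stood at percentile 99.4 and Bcl2l11 at percentile 58.1 of all coding genes. The 7 intergenic OCRs of Mcl1 in all 7 libraries flanked the gene on both sides, from 13.3 kb upstream to 7.5 kb downstream of the first start.

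The survival genes had 105 OCRs or 29.9 per 100 kb, and the death genes 90 or 23.5 per 100 kb. Counting OCRs in all 7 libraries, the densities were 14.8 and 13.3. Among the death genes, the effectors had 33.9 OCRs per 100 kb, more than the survival genes, and the BH3-only genes 20.1. Counting OCRs in all 7 libraries, these were 23.3 and 10.1. The kinds of OCR differed more between survival and death genes. At the survival genes 57 of the 105 were intronic, 45 of them in Bcl2, against 8 of the 90 at the death genes. The bodies of Bcl2 and Bcl2l1 are longer than that of any death gene, while that of Mcl1 is the shortest of all 10. At the death genes 18 OCRs belonged to promoters of other genes and 26 lay in the body of another gene, against 7 and 1 at the survival genes. Bad was the extreme case, with 8 promoters of other genes among its 14 OCRs, and the most intense OCR of all windows, 219 ± 37.8 (SD, n = 7), was the promoter of Esrra at the edge of its window. In the window of Bax the most intense OCR was likewise at other genes' starts, those of Ftl1, Gm10252 and Gm22133, at 139 ± 27.3 (SD, n = 7) against 46.5 at Bax itself. This OCR also overlaps the 3′ end of Bax and cannot be assigned to 1 of these genes.

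**Figure D3:**
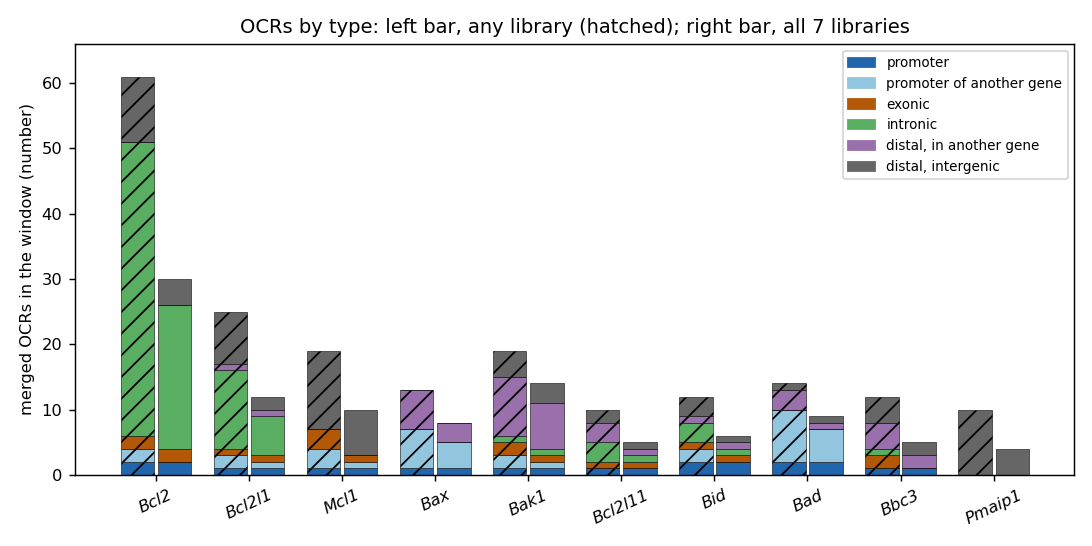
Number of merged OCRs in the window of each gene by type, in any library (left, hatched) and in all 7 libraries (right). Bcl2 has 61 and 30, 45 and 22 of them intronic, whereas the OCRs of Bax and Bad are mostly in or at other genes.

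Outside promoters, 6 of the 79 OCRs found in all 7 libraries had a mean within-library percentile of at least 90, as did 5.03% of the 49204 such OCRs of the whole data set. The 6 lay 1 each at Bcl2, Bcl2l1, Bak1, Bid, Bbc3 and Pmaip1. The one at Pmaip1 is described with that gene. Away from promoters most OCRs found in all 7 libraries were weaker, with medians of 8.54 for intronic and 9.90 for intergenic OCRs. The median was 96.5 for promoters of the members and 29.45 for promoters of other genes in the windows.

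At Bbc3 the strongest element was an intergenic OCR 13.3 kb upstream of the first start (chr7:16294273-16297967). Its intensity was 108 in the lowest library, 151 in the median and 184 in the highest, a mean of 145 ± 24.4 (SD, n = 7) at percentile 98.2 of all OCRs. It exceeded the promoter of Bbc3 in 7 of 7 libraries, 1.40-fold on average, with a log2 ratio of 0.49 ± 0.08. In GENCODE M21 it overlaps no gene. A second OCR 18.1 kb downstream, inside Sae1, had a mean of 38.9 ± 9.62 (SD, n = 7).

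At Bcl2l1 an intronic OCR 42.6 kb downstream of the first start (chr2:152788340-152790355) had an intensity from 86.2 through 113 to 141, a mean of 116 ± 18.4 (SD, n = 7). It was below the promoter of Bcl2l1 in 7 of 7 libraries, at 0.667 times its height, and its mean was close to the 115 of the Bcl2l11 promoter. An OCR 65.1 kb downstream of the start, past the end of the gene, reached 44.2 ± 10.4 (SD, n = 7).

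At Bak1 an OCR 16.8 kb downstream, inside Ggnbp1 (chr17:27011646-27013508), had 63.4, 85.9 and 134 in the lowest, median and highest library, a mean of 94.0 ± 24.3 (SD, n = 7). It was 0.954 times the promoter and above it in 1 of 7 libraries, HPC7-1. The ratio to its own promoter is unaffected by a factor common to chromosome 17, although the level itself is not. A weaker OCR 12.1 kb upstream had a mean of 31.1 ± 7.51 (SD, n = 7).

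At Bid an OCR 14.7 kb downstream (chr6:120901398-120902866) had 54.6, 76.3 and 119, a mean of 82.9 ± 21.2 (SD, n = 7). It touches an exon of Bid but its mean summit lies outside exons. Its ratio to the promoter was 0.985, with 3 of 7 libraries above 1. The next OCR outside promoters in that window, in the neighbouring Bcl2l13, had a mean of 11 ± 3.23 (SD, n = 7). A second promoter OCR of Bid (chr6:120897761-120898785) had a mean of 14.2 ± 2.95 (SD, n = 7).

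At Bcl2 the strongest intronic OCR lay 86.8 kb inside the gene (chr1:106626535-106628079), with 48.5, 74.0 and 93.0, a mean of 72.4 ± 13.9 (SD, n = 7). It reached 0.728 times the promoter and was below it in 7 of 7 libraries. A second one 47.8 kb inside had a mean of 46.9 ± 10.9 (SD, n = 7).

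The remaining 4 windows with a promoter OCR had weaker elements. At Bcl2l11 an OCR over an exon 33.2 kb downstream of the first start had a mean of 43.5 ± 11.1 (SD, n = 7). At Mcl1 an intergenic OCR 13.3 kb upstream had a mean of 30.6 ± 5.94 and another 7.96 kb upstream 26.1 ± 6.49 (SD, n = 7). At Bax the strongest, in Dhdh, had a mean of 13.3 ± 3.32, and at Bad the strongest, intergenic, 7.44 ± 1.67 (SD, n = 7). In none of these 4 did a library show the outside OCR above the promoter.

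**Figure D4:**
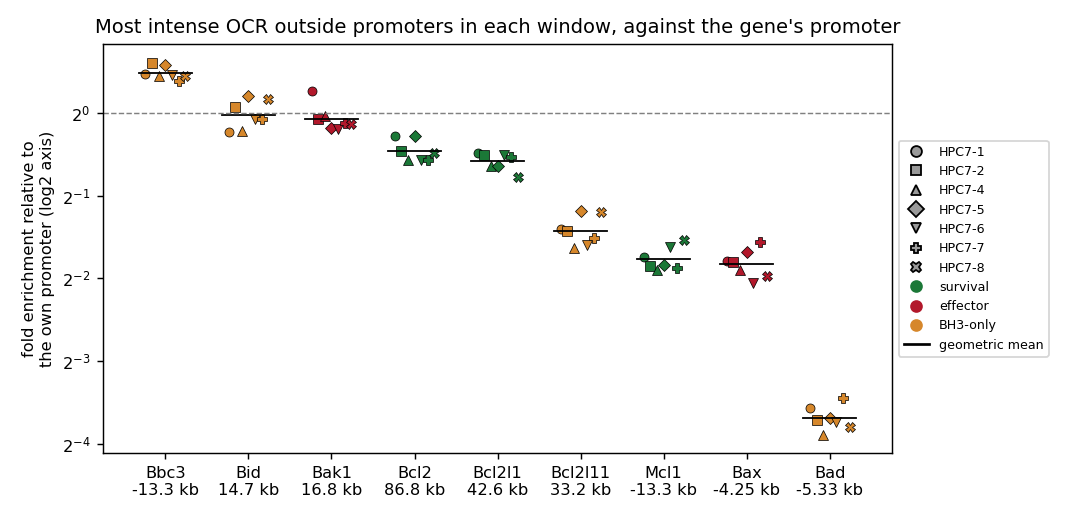
Intensity of the most intense OCR outside promoters in each window divided by that of the gene's own promoter (log2 axis), 1 symbol per library with the geometric mean as a line, and the distance of the summit from the first start under each gene. Bbc3 lies above 1 in all 7 libraries, Bid and Bak1 lie around 1, and Bad lies lowest at 0.0773.

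Sequences of 200 bp centred on the mean summit of these outside OCRs are shown for Bbc3, Bcl2l1, Bid and Bcl2, 4 of the 6 genes with such an element at percentile 90 or above, read from mm10 on the plus strand. Capitals mark matches on either strand to the motifs searched, which were GATAAG of GATA factors, TGTGGT of RUNX factors, CAGCTG and CACGTG (both E-boxes), the forkhead motif TGTTTAC, the CREB motif TGACGTCA, the STAT motif TTCNNNGAA, the ETS motifs ACTTCCGG (reverse complement CCGGAAGT) and GAGGAAGT, the NF-Y motif CCAAT, the SP motif GGGCGG and, by name, the p53 response element. Those matched here are GGGCGG (the GC box bound by SP and KLF factors, read CCGCCC on the other strand), the E-box CAGCTG (its own reverse complement), TGTGGT (the RUNX core, read ACCACA) and GAGGAAGT (an ETS motif, read ACTTCCTC).
Bbc3, chr7:16294957-16295156: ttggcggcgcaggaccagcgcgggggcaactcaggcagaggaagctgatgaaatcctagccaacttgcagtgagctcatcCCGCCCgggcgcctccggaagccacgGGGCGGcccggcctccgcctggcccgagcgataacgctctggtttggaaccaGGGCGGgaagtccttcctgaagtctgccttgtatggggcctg
Bcl2l1, chr2:152789015-152789214: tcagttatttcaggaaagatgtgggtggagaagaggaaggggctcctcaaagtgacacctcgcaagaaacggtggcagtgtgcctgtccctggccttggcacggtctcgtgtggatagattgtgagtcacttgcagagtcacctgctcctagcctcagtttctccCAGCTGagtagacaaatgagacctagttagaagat
Bid, chr6:120902041-120902240: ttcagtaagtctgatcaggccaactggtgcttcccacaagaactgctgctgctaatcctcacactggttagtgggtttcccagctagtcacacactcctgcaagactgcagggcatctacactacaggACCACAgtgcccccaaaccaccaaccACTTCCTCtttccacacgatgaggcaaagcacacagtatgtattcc
Bcl2, chr1:106627328-106627527: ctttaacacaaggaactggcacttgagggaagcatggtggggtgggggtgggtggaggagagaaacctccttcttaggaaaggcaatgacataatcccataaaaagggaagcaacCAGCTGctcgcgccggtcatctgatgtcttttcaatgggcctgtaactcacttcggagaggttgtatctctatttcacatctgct

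The window of the upstream element of Bbc3 held 66.5% G and C, the highest among the 79 outside OCRs of the family found in all 7 libraries, whose median was 49.5% and of which 6 had at least 60%. It is the only 1 of the 4 printed here with GGGCGG. The windows of the other 2 strong elements, at Bak1 and Pmaip1, held no match to any motif searched. Over the 79 outside OCRs of the family found in all 7 libraries, GGGCGG occurred in 3.80% of the summit windows, against 5.96% of the 49204 such OCRs of the whole data set. GATAAG, bound by GATA factors, occurred in 15 of the 79, or 19%, against 12.8%. TGTGGT also occurred in 15, or 19%, against 30.7%, and CAGCTG in 15.2% against 15.1%. A match describes the letters in the window and is not a bound site.

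Promoters are shown for Bcl2l1 and Bax, the most and the least intense of the 9, and for the survival genes Mcl1 and Bcl2. Each sequence gives the 150 bases before the start in RefSeq (GRCm38.p6, the build of mm10), on the strand of the gene, with capitals as above and for CACGTG, the E-box of MYC and USF factors.
Bcl2l1, chr2:152831729-152831878, minus strand: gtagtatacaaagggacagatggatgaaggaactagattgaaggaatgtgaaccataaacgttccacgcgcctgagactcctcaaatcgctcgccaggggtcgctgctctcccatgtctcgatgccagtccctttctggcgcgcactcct
Bax, chr7:45466899-45467048, minus strand: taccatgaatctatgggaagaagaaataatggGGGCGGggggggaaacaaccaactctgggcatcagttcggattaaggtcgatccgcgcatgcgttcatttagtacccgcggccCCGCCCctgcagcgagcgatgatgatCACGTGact
Mcl1, chr3:95658571-95658720, plus strand: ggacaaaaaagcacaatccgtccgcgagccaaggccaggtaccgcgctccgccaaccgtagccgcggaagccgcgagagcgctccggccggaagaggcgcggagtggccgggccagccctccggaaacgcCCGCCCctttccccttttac
Bcl2, chr1:106714291-106714440, minus strand: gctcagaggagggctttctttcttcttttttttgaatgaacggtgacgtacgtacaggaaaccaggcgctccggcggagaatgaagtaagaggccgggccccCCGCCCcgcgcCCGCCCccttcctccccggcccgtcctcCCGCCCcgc

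GGGCGG was present in the stretches of Bax, Mcl1 and Bcl2 and not in that of Bcl2l1, and 28.6% of the 32851 RefSeq promoters of the same length held it. The Bcl2l1 stretch matched none of the motifs searched, but the summit of its promoter OCR lies downstream of this start, and the 200 bp around that summit held GGGCGG 3 times and CCAAT 1 time. Around the mean summits of the 24 promoter OCRs found in all 7 libraries, 12 of members and 12 of other genes only, GGGCGG occurred in 7 of the members' and 5 of the others', or 50.0% together, against 39.3% of the 17775 promoter OCRs found in all 7 libraries. The STAT core TTCNNNGAA occurred in none of the members' 12 and in 4 of the others', against 4.10% of all promoter OCRs, and this difference was not tested. At Bcl2l11 the mean summit stands for no library, since the summit lay at 128125866 to 128125870 in 5 libraries and at 128127485 to 128127532 in 2, so no match there is given. That window is counted among the 12 and held neither GGGCGG nor TTCNNNGAA. No summit window of the family held the p53 response element, which was present in 0.0394% of promoter OCRs and 0.0752% of the others.

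Pmaip1 encodes NOXA, which binds MCL1, and lies on chromosome 18 (ENSMUSG00000024521.8, chr18:66458533-66465565, plus strand). No library had a peak within 1 kb of its 3 starts. An 11.2 kb stretch around the whole gene held no peak in any library. The nearest OCR, found in all 7 libraries, ended 1.85 kb upstream of the start and had an intensity of 9.90 ± 2.55 (SD, n = 7), between 7.20 and 13.4, so that with a promoter window of 3 kb all 10 members count as having a promoter OCR in all 7 libraries. With that OCR as its promoter, Pmaip1 was still below Bax by a log2 difference of 2.25 ± 0.12 (adjusted p = 0.022, exact permutation test).

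The window of Pmaip1 did hold strong OCRs away from the gene. An intergenic OCR 12.3 kb downstream of the start had intensities of 59.1, 87.7 and 118 in the lowest, median and highest library, a mean of 89.0 ± 19.7 (SD, n = 7) at percentile 94.4 of all OCRs, and another 19.8 kb downstream had a mean of 43.7 ± 5.97 (SD, n = 7). In all, 4 of its 10 OCRs were in all 7 libraries and all 10 were intergenic. Around its first start 1 kb held 58.8% G and C with an observed to expected CpG ratio of 0.972. The medians over coding genes were 58.3% and 0.719 for those with a promoter OCR in all 7 libraries, and 47.1% and 0.223 for those with none in any. How well reads map at this start was not tested.

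**Figure D5:**
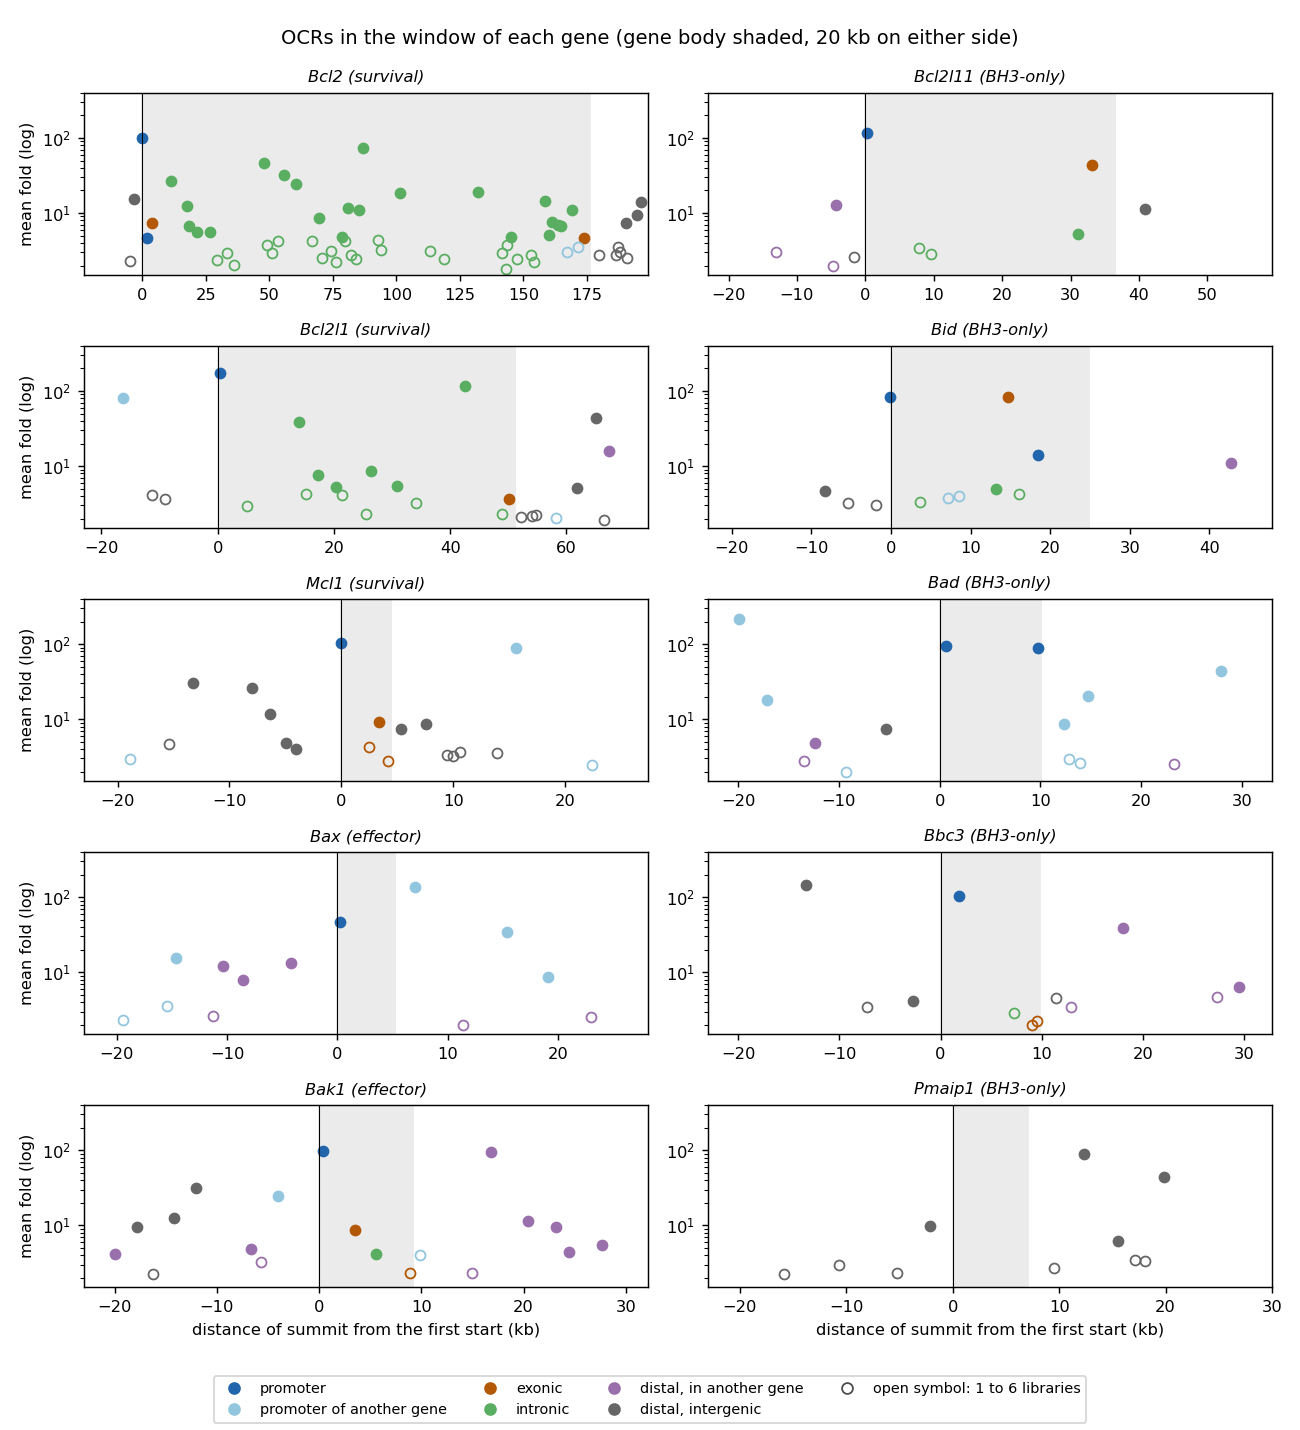
OCRs in the window of each gene by the distance of their summit from the first start (kb) and their mean intensity (log axis), with the gene body shaded, colour for the type and open symbols for OCRs in 1 to 6 libraries. Every gene except Pmaip1 has a filled promoter symbol near 0, and Bbc3 has a stronger OCR 13.3 kb upstream.

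The rest of the apoptosis pathway was described with 41 other genes in 5 lists. A promoter OCR was present in all 7 libraries for 34 of them, in some for 2 and in none for 5, beside the 55.9% of all coding genes given above. All 8 genes of the apoptosome and caspases had one, and all 7 of the regulators of the members, which include Trp53, Mdm2, Foxo3 and Stat5a. So did all 6 of the list called caspase inhibition: Xiap, Birc2, Birc3, Birc5, Diablo and Htra2. Not all of these inhibit caspases. In the list called death receptors, 4 of 5 had one (Fadd, Tnfrsf10b, Tnfrsf1a and Cflar, but not Fas), and not all of these are receptors. Of 15 other BCL2 family genes, 9 had one in all 7 libraries. Among the most intense were those of Birc2, a ubiquitin ligase of the IAP family, with 208 ± 42.3 (SD, n = 7), and of Bnip3, a mitophagy receptor, with 183 ± 33.6.

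The 5 genes without a promoter OCR in any library were Fas, the death receptor, and 4 BCL2 family genes: the BH3-only genes Bik and Hrk and the survival genes Bcl2l10 and Bcl2a1a. Bcl2a1b and Bcl2a1d had weak OCRs in 5 libraries each, at means of 4.29 and 4.03. These and Bcl2a1a are near-identical copies on chromosome 9, where reads that fit several places may have been dropped or split, so their values are uncertain.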

How the data were processed

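Bulk ATAC-seq peak lists of 7 HPC7 libraries were analysed. The authors used Cutadapt for trimming, BWA-mem for alignment against mm10 and MACS2 for peak calling, library by library; versions and options are not given in the sources used here. Per peak, the deposited files hold the fold enrichment and a −log10 p and −log10 q. Fold enrichment is the summit reads plus 1 over the background of the library plus 1. Read depth is not in the lists. Whole multiples of 1 step gave the reads at each summit, whose Poisson probability lay within a median of 9.67e-06 of the deposited −log10 p in every library.

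Promoters were 1 kb on either side of any GENCODE M21 transcript start, and a promoter's intensity was the highest fold enrichment among peaks overlapping them. Overlapping peaks (1 bp or more) from different libraries were joined into 1 OCR. Each merged OCR was assigned, in this order, to a promoter of the member, a promoter of another gene, an exon or intron of the member, the body of another gene, or intergenic space. Pairs of members were compared with exact sign-flip permutation tests over 128 sign patterns. The functions were tested on simulated data and against bedtools 2.31.1. The 10 members, the lists and the motifs were chosen with earlier results of these data known. Named were all members, the 2 most intense outside OCRs of each window, and of the other apoptosis genes the 3 most intense, of which 1 is not reported here, and those without a promoter OCR; Bcl2a1b, Bcl2a1d, Esrra and the genes at the Ftl1 OCR were named after their values were seen. The genes of the caspase inhibition and death receptor lists are given in full. RefSeq promoter sequences matched 9 members. Python 3.11.15, numpy 2.4.6, pandas 2.3.3 and scipy 1.17.1 were used. Libraries came from separate culture batches of 1 line, so p-values measure the spread between these cultures.

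Alternatives were promoter windows of 3 kb and 500 bp, starts of protein-coding transcripts alone, a −log10 q of at least 5, lists of equal length, summits inside the window, scaling by chromosome, −log10 p as intensity, 50% overlap, flanks of 10 kb, 50 kb and none, and each library left out; leaving out Pmaip1 was added after seeing the data.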

Additional observations from a re-analysis of the deposited data

Results flagged for a closer look

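In 31 measures of the members, each taken over the 7 libraries, the gap between the highest or lowest library and its nearest neighbour was compared with the whole range, against Dixon's 95% critical value. Chance alone marks about 1 in 20 such groups, and 3 measures were marked.

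The promoter intensity of Bcl2 was 72.1 in HPC7-6, where the next library had 95.7, a gap of 0.579 of the range. HPC7-6 also had the lowest value for 7 of the other promoters, which did not pass the limit.

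The other 2 were counts of peaks in HPC7-1, the library with the longest list and the highest background. It had 25 peaks in the window of Bcl2l1, where the next library had 17 (0.727 of the range), and 13 in the window of Bax, where the next had 10 (0.6 of the range).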

How the results depend on the processing

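Windows of 3 kb or 500 bp, starts of protein-coding transcripts, summits in the window and −log10 p as intensity kept the same 36 pair calls and directions. For the 9 genes with a promoter OCR, the changes of window, starts and summits gave the same intensities, so they do not test these calls. Within a library −log10 p rises with fold enrichment, so the direction in each library could not change. The 9 calls with Pmaip1 are fixed by its stand-in, except with the 3 kb window. There Pmaip1 had a promoter OCR of its own, and Bax minus Pmaip1 was 2.25. With scaling by chromosome 42 of 45 pairs were called: 33 in the same direction, 2 calls that turned (Bcl2 minus Bid to -0.38 and Bak1 minus Bid to -0.40) and 7 new ones, among them 2 whose sign differed (Bcl2 minus Bad at -0.39 and Bak1 minus Bad at -0.41), these 4 with an adjusted p of 0.018. Every promoter is divided by the value of its own chromosome. The call of Bid minus Bad was lost. With single libraries left out, 32 to 35 pairs were called, where 6 libraries allow no p under 0.0312. The calls lost were Bcl2 minus Bid, Bak1 minus Bid, Mcl1 minus Bcl2l11 and Bak1 minus Bcl2l11, the 4 with 1 library of the opposite sign among those called; each kept its call when that library was left out (HPC7-4 for Bak1 minus Bid, HPC7-5 for the others).

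The share of OCRs found in all libraries was 68.7% with lists of equal length and 52.8% to 62.6% with single libraries left out, highest without HPC7-1. The windows held 321 OCRs with a flank of 50 kb, 94 over gene bodies alone, and 171 to 196 with single libraries left out. Promoter OCRs of the members rose from 12 to 24 with a promoter window of 3 kb. The survival minus death difference stayed positive, at 0.15 to 0.21, with single libraries left out. No paired analysis was possible because all libraries belong to 1 group, which leaves no groups of samples to pair; the tests between members do pair their values within a library. The lists hold no reads outside peaks, so an OCR under the lowest listed intensity cannot be told from one that is absent.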
